A study of Homo sapiens with 40 samples.

Results

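The 10 messenger RNAs described here, CD44, HMGA2, IGF2, MYC, CCND1, CCND3, CCNG1, CDK6, LIN28B and ACTB, have been reported as bound by the IGF2BP proteins. They were chosen by name from that literature, with earlier results of these data known. Their Ensembl gene identifiers gave 10 rows of 62263 in the deposited table. Of the 10, 8 passed the filter on low counts and were tested among 16735 genes, whereas HMGA2 and LIN28B did not pass and are given as counts. The libraries came from BEAS-2B, an immortalised human bronchial epithelial cell line, in which total RNA (input) and RNA bound to several ribosomes (polysome) were sequenced separately. Cells carried a constitutive short hairpin, either a control hairpin (shControl) or one against IGF2BP3 (shIGF2BP3), and were grown in 10% serum, starved in 2% serum, then left unstimulated or given the cytokine IL-13 at 100 ng/ml and harvested after 24 h. Fraction, treatment and line gave 8 groups of 5 libraries, 40 in all. There was 1 line per hairpin, so the hairpin and any other difference between the lines cannot be told apart. The hairpin lines are those of the growth protocol, whereas the sample titles write siC and siIGF2BP3. The protocol was followed here, and the difference between these sources was not resolved. The labels number the replicates and do not say whether they were separate cultures, so p-values measure the spread between these samples, which may be technical. The main fit took 1 spread per gene from input and polysome libraries together. Polysome p-values therefore rest in part on the spread of the input libraries, and input p-values on that of polysome.

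IGF2BP1, IGF2BP2 and IGF2BP3 are cytoplasmic RNA-binding proteins that hold chosen messenger RNAs in ribonucleoprotein particles and are known for stabilising them, placing them in the cell and setting when they are translated. They are abundant in the embryo and in many tumours. The founding target is the ACTB messenger RNA, whose 3′ untranslated region holds a short localisation element called the zipcode. Another class of sites carries an N6-methylated adenosine within a GGAC core.

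Because the zipcode is the best characterised IGF2BP site among these messenger RNAs, it is shown first. In the GENCODE release 29 transcript ENST00000331789.10 (GRCh38, chr7:5527718-5527747, minus strand), the first 30 bases after the stop codon, in exon 6 of 6 and in the 3′ untranslated region, read 5′ to 3′ with the letters CGGAC and ACA in capitals:
ACTB: gCGGACtatgacttagttgcgttACAccct
There are 17 bases between the capital stretches. A search on the transcript strand for CGGAC followed after 10 to 25 bases by ACA, a spacing that includes the ACTB one, found it in this window in 4 of 13246 tested genes with a coding transcript, which is 0.0302%. Anywhere in the 3′ untranslated region the pair was found in 4.04% of these genes and, of the 10 messenger RNAs, in ACTB alone. The shorter letters TGGAC, a form of the methylated core, were found in the 3′ untranslated region of 8 of the 10, all but ACTB and CCND3, against 58.7% of the tested genes. Over all 10, the 3′ untranslated region had a median length of 3036 bases, against 1091 in the tested genes. Among the 2393 tested genes with at least 3000 bases there, 94.7% held TGGAC. A match of letters is a description and not a binding site.

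The line labels were examined first at IGF2BP3. In input, its level was 20.7 to 48.8 CPM (estimated counts scaled to a common library size), median 31.8, in 10 shControl libraries and 17.7 to 35.1, median 25.7, in 10 shIGF2BP3 libraries. The ranges overlapped, and the mean difference of both treatments was log2 -0.48 (SE 0.259, edgeR adjusted p = 0.957). In polysome RNA the difference was -0.12 (SE 0.268, edgeR adjusted p = 0.886). Names of lines below are therefore those of the labels. IGF2BP2 was measured at 55 to 83 CPM in shControl input and at 69.8 to 103 in shIGF2BP3 input (log2 0.39, edgeR adjusted p = 0.733, and 0.0142 in the 20 input libraries alone), and its polysome difference was 0.65 (edgeR adjusted p = 0.0522, and 0.0405 with DESeq2 size factors). Total counts ran from 14044352 to 40441061 in input and from 1816848 to 34082191 in polysome libraries, of which 3, all shIGF2BP3, held under 5000000. Keratins KRT8 (746 to 2310 CPM in input) and KRT18 were abundant, whereas the epithelial markers EPCAM and CDH1 did not exceed 1.26 and 4.18 CPM and of the mesenchymal markers VIM ran from 1440 to 2350 and COL1A1 from 229 to 1040, while DCN and LUM stayed at or under 0.099. Of the leukocyte markers, PTPRC was at 0 in every input library, CD3E stayed under 0.1 CPM, and CD14 and CD68 ran from 10.2 to 30.6 and from 5.97 to 17.5 CPM. Of the 3 endothelial markers, PECAM1 and VWF stayed under 1 CPM, and the summed level was 0.451 to 2.03 CPM in unstimulated shControl input and 6.18 to 13.1 in shIGF2BP3 input, mostly CDH5. The part of these marker differences in the results was not tested.

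Levels per transcript length spanned several orders of magnitude. On the deposited TPM scale, which divides by transcript length, ACTB, the cytoskeletal beta-actin, had an input level of 3180 to 6350, median 5360, over 20 libraries. The cyclins CCNG1 and CCND3 followed with medians of 70.1 and 69.1 TPM and overlapping ranges. CD44, the cell-surface hyaluronan receptor, lay at a median of 47 TPM, and the transcription factor MYC at 29.6. Ranges of neighbouring genes in this order overlapped from CCNG1 down to MYC. CCND1, cyclin D1, and its partner kinase CDK6 had input medians of 3.54 and 3.28 TPM, also overlapping. In polysome libraries CCND3, at 107 to 208 TPM, lay above CCNG1, at 18.4 to 103, with no overlap of the ranges. Levels of bulk RNA cannot tell fewer cells expressing a gene from less RNA per cell.

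The classical oncofoetal targets were at or near the limit of detection. LIN28B, an inhibitor of let-7 microRNA maturation, had 1 count in 20 input libraries and 1 count in 20 polysome libraries. HMGA2, an architectural chromatin protein and let-7 target, had 79 input counts in all, with 18 in the highest library, and 35 polysome counts. IGF2, the growth factor after which the proteins are named, had 253 input counts, with at most 32 in a library, and 23 polysome counts, and it passed the filter through its input libraries. The row for the read-through gene INS-IGF2, which overlaps IGF2, was at 0 in all 40 libraries. Line differences of LIN28B and HMGA2 were not tested, since neither passed the filter.

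**Figure D1:**
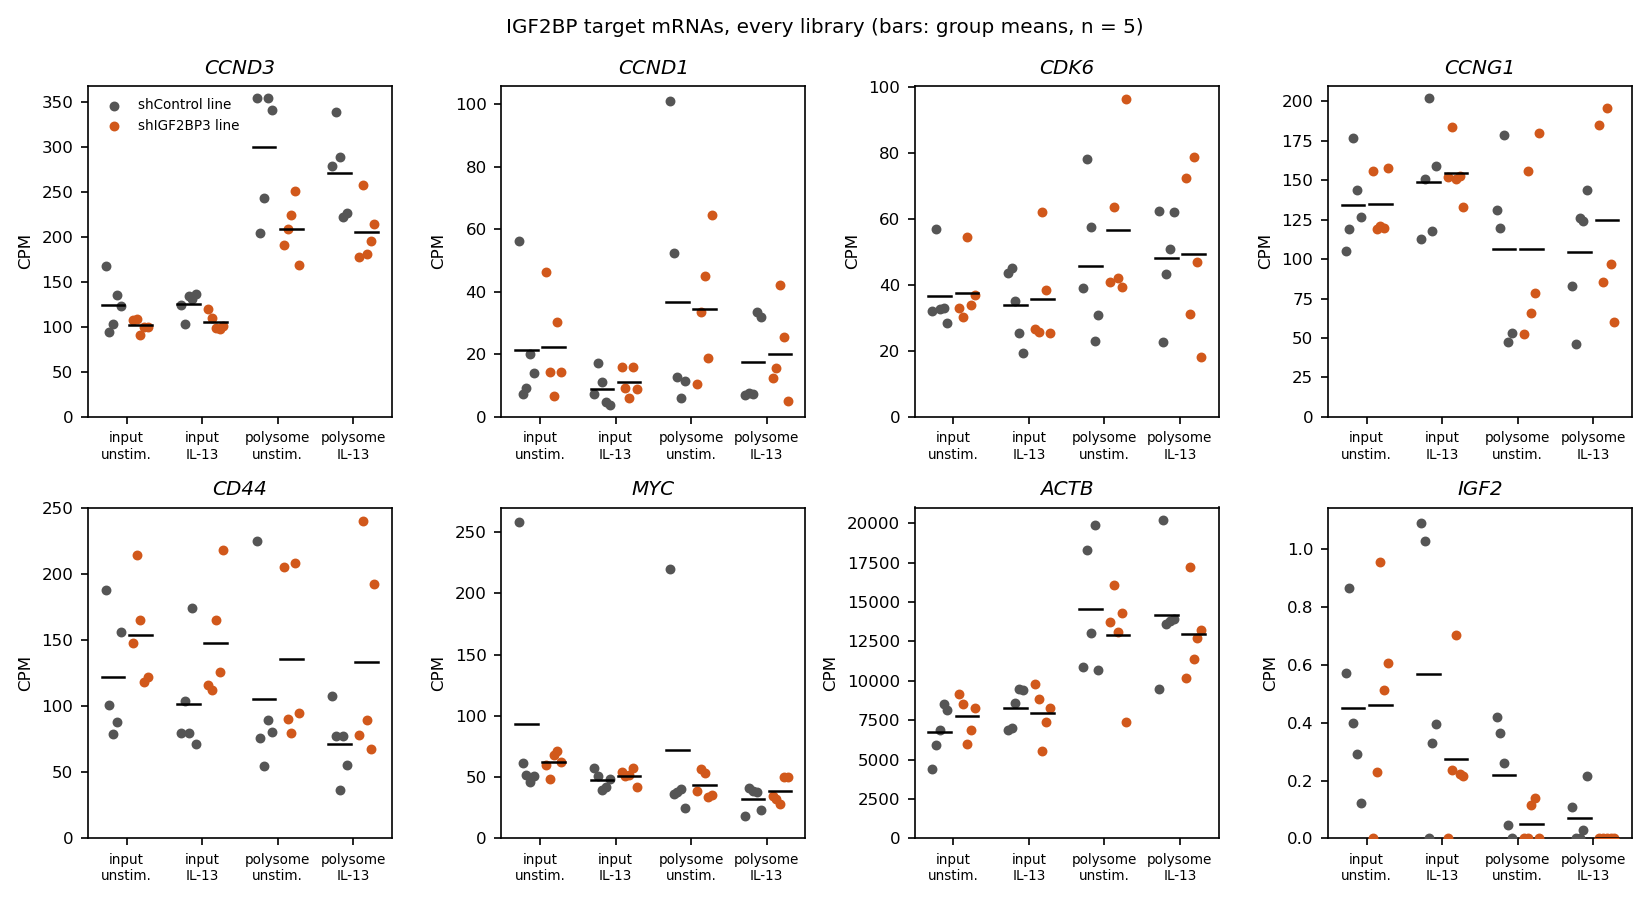
Each panel plots 1 messenger RNA. Points are single libraries in CPM on a linear axis from 0, grey for shControl and orange for shIGF2BP3, and black bars are the means of 5 libraries. CCND3 and ACTB sit higher in polysome than in input groups, CCND3 in polysome is lower in the shIGF2BP3 line, and 1 unstimulated shControl library reaches 258 CPM of MYC in input and 220 in polysome.

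CCND3, cyclin D3, which activates CDK4 and CDK6 in G1, was the 1 messenger RNA of this set called in a line effect. That call was lost in some of the other fits given below, and a lack of a call does not show equal levels. CCND3 was lower by 27.3% in shIGF2BP3 polysome RNA, and its input level was 17.3% lower without passing the test. Unstimulated shControl polysome libraries held 355, 205, 244, 355 and 341 CPM, and shIGF2BP3 libraries held 191, 209, 225, 251 and 169. With IL-13 the shControl polysome libraries held 279, 339, 289, 222 and 227 CPM and the shIGF2BP3 libraries 178, 258, 181, 196 and 215. In both treatments the shIGF2BP3 libraries lay toward the lower end, but the ranges overlapped, 205 to 355 (median 284) against 169 to 258 (median 202) over 10 libraries each. The mean line effect of both treatments in polysome RNA was log2 -0.46 (SE 0.113, edgeR adjusted p = 0.0267). On the deposited TPM scale the same libraries ran from 120 to 208, median 152, against 107 to 140, median 124. CCND3 was 1 of 8 tested messenger RNAs called in this comparison, against 1.38% of all genes. DESeq2's Wald test also called 1 of the 8, and 524 genes in all. At an unadjusted p under 0.05 by edgeR there were 3 of 8 (CCND3, CD44 and IGF2), against 14.7% of all genes. Within treatments the polysome line effect was -0.52 unstimulated (edgeR adjusted p = 0.271) and -0.40 with IL-13 (edgeR adjusted p = 0.378). EdgeR called none of the 8, against 0.0299% and 0.0896% of all genes. DESeq2's Wald test also called none of the 8, and it called 84 and 144 genes in all. Within treatments, edgeR gave 1 and 3 of 8 at an unadjusted p under 0.05, against 7.42% and 9.92% of all genes. IGF2 was among those 3, and its IL-13 shIGF2BP3 polysome libraries held 0 counts.

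The CCND3 call did not hold in 7 of 20 fits without 1 polysome library, and over these fits the log2 value ranged from -0.515 to -0.3846 and the edgeR adjusted p from 0.0104 to 0.0703. The libraries whose removal lost it were unstimulated shControl 4 and 5, IL-13 shControl 2, unstimulated shIGF2BP3 1 and 5, and IL-13 shIGF2BP3 1 and 3. It was also lost among libraries of at least 5000000 counts (-0.36, edgeR adjusted p = 0.182), in a fit to the 20 polysome libraries alone (-0.43, edgeR adjusted p = 0.192) and with no filter on low counts (-0.46, edgeR adjusted p = 0.0943). The fit to polysome libraries alone takes no spread from input. Over genes of at least 10 CPM, the median SD of log2(CPM + 1) within groups was 0.257 in input and 0.454 in polysome. The call in the main fit thus rests on a spread shared with the less variable input libraries.

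In input, CCND3 levels were 168, 94.5, 103, 136 and 123 CPM in unstimulated shControl and 108, 109, 91.5, 99.9 and 100 in shIGF2BP3 libraries. With IL-13 they were 124, 103, 135, 131 and 137 CPM against 120, 110, 99.3, 97.9 and 101. The shIGF2BP3 ranges were narrow and overlapped the lower end of the shControl ranges. The mean line effect in input was log2 -0.27 (95% interval -0.50 to -0.05, unadjusted p = 0.0196 by edgeR's quasi-likelihood test, adjusted p = 0.624), and it was -0.29 unstimulated and -0.26 with IL-13. The shift, that is the polysome line effect minus the input line effect, was -0.19 (95% interval -0.51 to 0.14, edgeR adjusted p = 1), so the difference between fractions was within its error.

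Across the 8 tested messenger RNAs, neither edgeR's test nor DESeq2's Wald test called a line effect in input. The shares of all genes called by edgeR were 0.012% unstimulated, 0% with IL-13 and 0.406% for the mean of treatments. In the same order the Wald test called 31, 57 and 148 genes in all. For the mean, 1 of the 8, CCND3, had an unadjusted p under 0.05, against 5.87% of all genes. The shift was called for none of the 8 by edgeR or by DESeq2's Wald test. EdgeR called it for 0% of all genes unstimulated, 0.00598% with IL-13 and 0% for the mean. The Wald test called 10, 9 and 13 genes in all in the same order. At an unadjusted p under 0.05 there were 0 of 8, against 1.69%, 1.79% and 1.91% of all genes in the same order. Of the mean line effects, 5 of 8 were above 0 in input (median 0.04, all genes -0.01) and 4 of 8 in polysome (median -0.04, all genes -0.04). The polysome median includes IGF2 at log2 -2.43, a value without an error, since its IL-13 shIGF2BP3 polysome libraries held 0 counts. Its nearness to the median of all genes is therefore not read as a result.

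**Figure D2:**
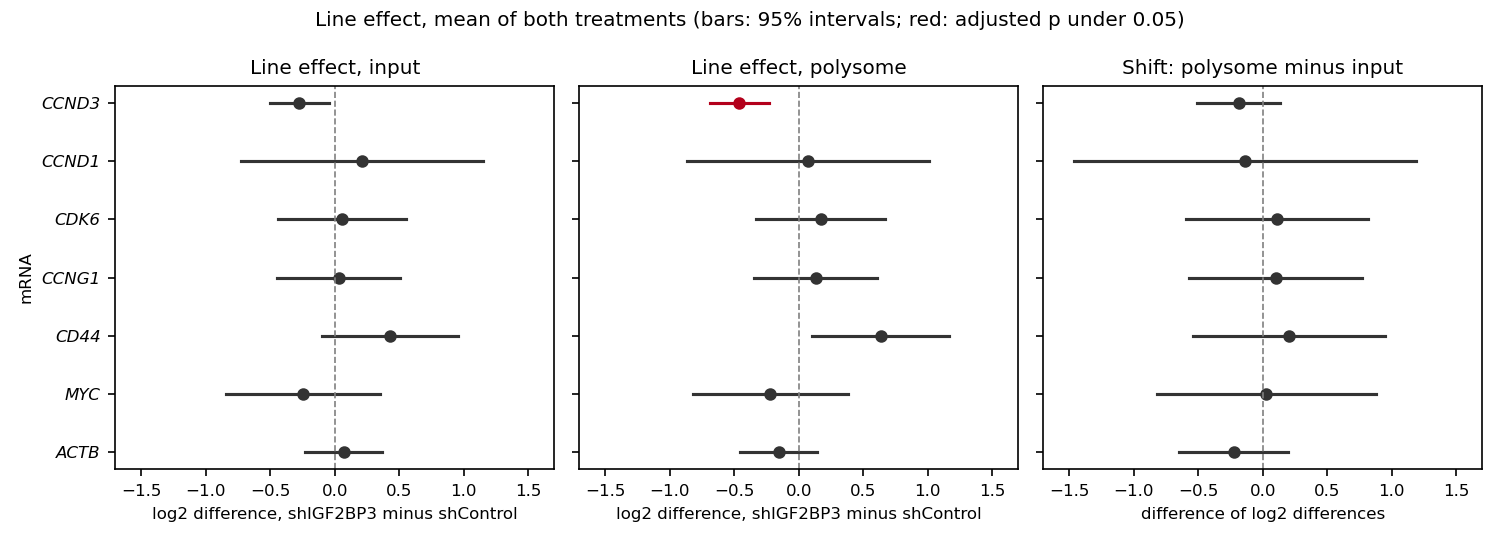
Horizontal axes show log2 differences between the lines (shIGF2BP3 minus shControl, mean of both treatments) in input and in polysome RNA, and the difference of these differences. Points are estimates, bars are 95% intervals, and red marks an edgeR adjusted p under 0.05. The CCND3 polysome interval, -0.69 to -0.23, is the one marked, and each of the 7 intervals of the shift includes 0.

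CD44 had the largest positive line effects of the set, and they did not pass the test. Its polysome levels were 225, 75.7, 54.6, 89.5 and 80.6 CPM in unstimulated shControl and 205, 89.9, 79.3, 208 and 94.8 in shIGF2BP3 libraries. With IL-13 they were 108, 77.5, 36.5, 77.7 and 55.7 CPM against 78.3, 240, 89.3, 67.7 and 192. A pair of shIGF2BP3 libraries in each treatment stood at or above 192 CPM, and the remaining ones lay among the shControl libraries. The mean polysome line effect was log2 0.64 (95% interval 0.11 to 1.17, edgeR adjusted p = 0.225). Without the unstimulated shControl libraries numbered 1, the 225 CPM library and the input library of that number, it was 0.88 (edgeR adjusted p = 0.0439), and with an offset for transcript length it was 0.43 (edgeR adjusted p = 0.509). In input, 10 shControl libraries ran from 71.5 to 188 CPM, median 94.4, and 10 shIGF2BP3 libraries from 112 to 218, median 137, with a line effect of 0.43 (95% interval -0.10 to 0.96). CD44 has many splice forms, and values are sums over them.

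MYC line effects turned on the unstimulated shControl libraries numbered 1, an input and a polysome library that the labels do not tie to 1 culture. Unstimulated shControl input libraries held 258, 61.5, 51.4, 45.8 and 50.6 CPM and shIGF2BP3 input libraries 60.2, 48.3, 68, 71.2 and 62. The polysome libraries of the same groups held 220, 36.3, 38, 40.6 and 25 CPM and 38.9, 56.7, 53.7, 33.5 and 35.7. The first shControl number was high in both fractions, and the remaining libraries of both lines overlapped. The unstimulated input line effect of -0.59 turned to 0.24 without those libraries, and the unstimulated polysome one of -0.71 turned to 0.33. With IL-13 the line effect was 0.10 in input and 0.27 in polysome. None of these passed the test, and the mean shift was 0.03 (95% interval -0.82 to 0.88).

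CCND1, cyclin D1, had the widest spread. Its unstimulated input levels were 56.4, 7.32, 9.37, 20.2 and 14 CPM in shControl and 46.4, 14.4, 6.8, 30.4 and 14.5 in shIGF2BP3 libraries, and the same groups in polysome held 101, 52.5, 12.8, 5.95 and 11.6 CPM and 10.5, 33.4, 45.2, 18.9 and 64.5. Single libraries of both lines stood high, and the ranges overlapped. The mean line effect was 0.21 in input (95% interval -0.73 to 1.15) and 0.07 in polysome (-0.87 to 1.01), the widest intervals of the set after IGF2. Leaving out 1 library moved the input value from -0.01 (without unstimulated shIGF2BP3 1) to 0.59 (without unstimulated shControl 1), and the polysome value from -0.15 (without IL-13 shIGF2BP3 3) to 0.49 (without unstimulated shControl 1).

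CDK6, the kinase partner of D-type cyclins, and CCNG1, cyclin G1, a p53 target that binds a phosphatase subunit, had line effects near 0 in input. For CDK6 the value was 0.06 (95% interval -0.44 to 0.56) with 19.3 to 56.8 CPM, median 32.9, in shControl and 25.3 to 61.9, median 33.3, in shIGF2BP3 input. For CCNG1 it was 0.03 (95% interval -0.44 to 0.50) with 105 to 202 CPM, median 135, against 119 to 184, median 151. In polysome RNA the values were 0.17 (-0.33 to 0.67) for CDK6 and 0.13 (-0.35 to 0.61) for CCNG1.

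ACTB had the narrowest interval after CCND3. Input levels ran from 4370 to 9480 CPM, median 7600, in shControl and from 5560 to 9770, median 8260, in shIGF2BP3 libraries, and polysome levels from 9480 to 20200, median 13700, against 7370 to 17200, median 13200. The ranges overlapped in both fractions. The line effect was 0.07 in input (95% interval -0.23 to 0.37) and -0.15 in polysome (-0.45 to 0.15), and the shift was -0.22 (-0.65 to 0.20). Reads of ACTG1, the near-identical cytoplasmic gamma-actin, could be assigned in part to ACTB, and its own line effects were -0.18 in input and -0.37 in polysome (edgeR adjusted p = 0.304). IGF2 had few polysome counts, 18 in 10 shControl and 5 in 10 shIGF2BP3 libraries, against 152 and 101 in input, where the line effect was -0.49 (95% interval -1.90 to 0.93). Its unstimulated polysome line effect was -1.50 (95% interval -4.13 to 1.12), and no error could be had where the IL-13 shIGF2BP3 libraries, all at 0, entered.

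The clearer difference was between polysome and input RNA within a line. CCND3 and ACTB were higher in polysome in each of the 4 settings, and CD44, MYC, CCND1, CCNG1 and CDK6 did not pass the test in any of them. Among libraries of at least 5000000 counts, CDK6 was called higher in IL-13 shIGF2BP3 cells (log2 0.86, edgeR adjusted p = 0.0442). CCND3 in all 20 polysome libraries, 169 to 355 CPM, lay above all 20 input libraries, 91.5 to 168 CPM. Its log2 difference was 1.26 in unstimulated shControl (edgeR adjusted p = 4.75e-08), 1.04 in unstimulated shIGF2BP3, 1.10 in IL-13 shControl and 0.96 in IL-13 shIGF2BP3 cells (edgeR adjusted p = 6.81e-06). ACTB differed by 1.10 (edgeR adjusted p = 4.95e-05), 0.73, 0.78 and 0.70 (edgeR adjusted p = 0.0071) in the same order. Its unstimulated shControl polysome libraries, at 10900, 18300, 13000, 19900 and 10700 CPM, lay above the matching input libraries, at 4370, 5910, 6880, 8540 and 8170, whereas in unstimulated shIGF2BP3 1 polysome library of 7370 CPM fell within the input range.

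These 2 of 8 were called higher against 17.4% of all genes in unstimulated shControl, 16.4% in unstimulated shIGF2BP3, 16.7% in IL-13 shControl and 16% in IL-13 shIGF2BP3 cells. Lower calls made up 22.8%, 22%, 22.6% and 23.3% of all genes in the same order. IGF2 is left aside here, since its place among the tested genes rests on its input counts. None of the remaining messenger RNAs was called lower by edgeR or by DESeq2's Wald test, with 0 lower at an unadjusted p under 0.05. The shares above are edgeR's. In either direction the Wald test called 7162, 6841, 7037 and 6921 genes in the same order. The median of all genes was -0.20 in both unstimulated settings on this scale, which moved to -0.16 and -0.14 with DESeq2 size factors.

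For polysome against input, IGF2 is given as counts without a test. It passed the filter through its input libraries, and a lower polysome level follows from that choice in part. Over the 5 libraries of each fraction it had 73 input and 14 polysome counts in unstimulated shControl, 63 and 5 in unstimulated shIGF2BP3, and 79 and 4 in IL-13 shControl cells. In IL-13 shIGF2BP3 cells it had 38 input counts and 0 polysome counts, which is at least 11.8-fold lower with a floor of 3 counts over the group. These floors and counts cover counting error only.

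MYC differences were -0.38, -0.50, -0.58 and -0.40 in the 4 settings and did not pass. The unstimulated shControl value was -1.42 without polysome library 1 (edgeR adjusted p = 0.00106) and 0.45 without input library 1. Without both of these libraries the first became -0.58 (edgeR adjusted p = 0.0394), the unstimulated shIGF2BP3 one -0.50 (edgeR adjusted p = 0.0489) and the IL-13 shControl one -0.58 (edgeR adjusted p = 0.0208).

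Polysome against input varied with transcript length. Over coding genes split into 4 equal classes by length, the median log2 difference was 0.37 in the shortest class, then 0.12, -0.26 and -0.73 in the longest. Lengths are those of 1 GENCODE transcript per gene, which need not be the form expressed here. Set against its own class as a description, CCND3 (2085 bases, mean of the settings 1.09) lay above 90.5% of genes, CCND1 (4307 bases, 0.81) above 90.3% and CDK6 (11612 bases, of which 10219 are 3′ untranslated, 0.47) above 89.8%. The difference from input itself was not called for CCND1 or CDK6 in any setting, and that of CCND1 in unstimulated shControl was -0.06 without polysome library 1. ACTB (1921 bases, 0.83) lay above 67.5% and CD44 (5732 bases, -0.27) above 66.9%. CCNG1 (2458 bases, -0.37) and MYC (2366 bases, -0.46) lay above 30.9% and 27.6%. IGF2, at the floor in 1 setting, was given no rank.

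**Figure D3:**
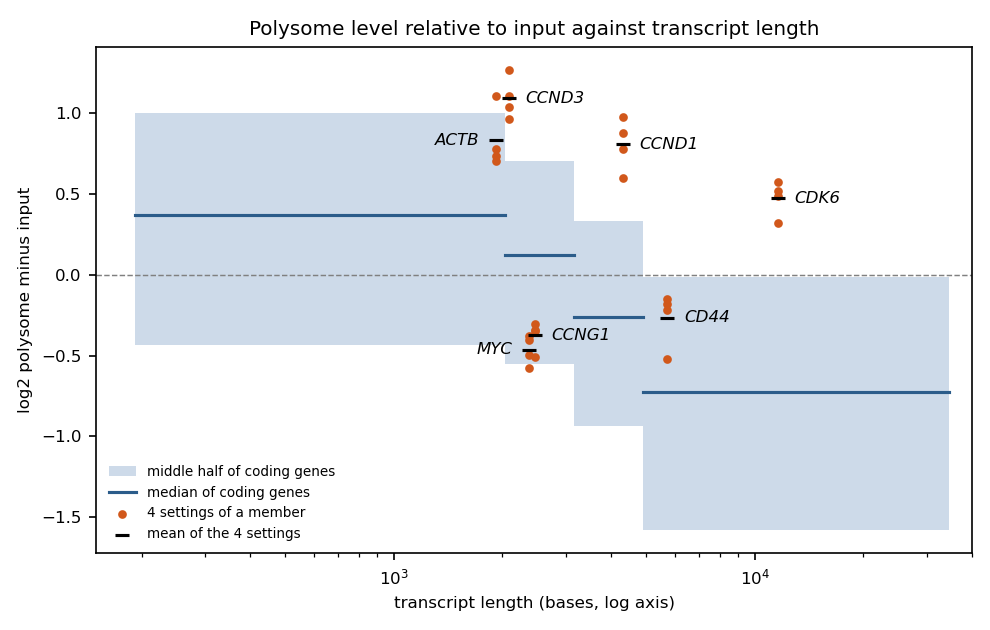
The horizontal log axis is transcript length in bases and the vertical axis the log2 difference between polysome and input. Orange points are the 4 settings of a messenger RNA, black ticks their mean, blue lines the median of coding genes in each length class and shaded boxes the range from the lower to the upper quartile. CCND3, CCND1 and CDK6 lie above the boxes of their classes, and IGF2 is not drawn.

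Spread between replicate libraries set which of these messenger RNAs could be compared closely. The SD of log2(CPM + 1) within groups was 0.201 in input and 0.271 in polysome for CCND3, against medians of 0.257 and 0.454 over 8920 genes of at least 10 CPM. CCND1 was at 0.884 and 1.22, a spread above that of 99.3% and 98% of those genes. CCNG1 was near the median in input at 0.259 and at 0.753 in polysome, where its libraries ran from 46.2 to 196 CPM.

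**Figure D4:**
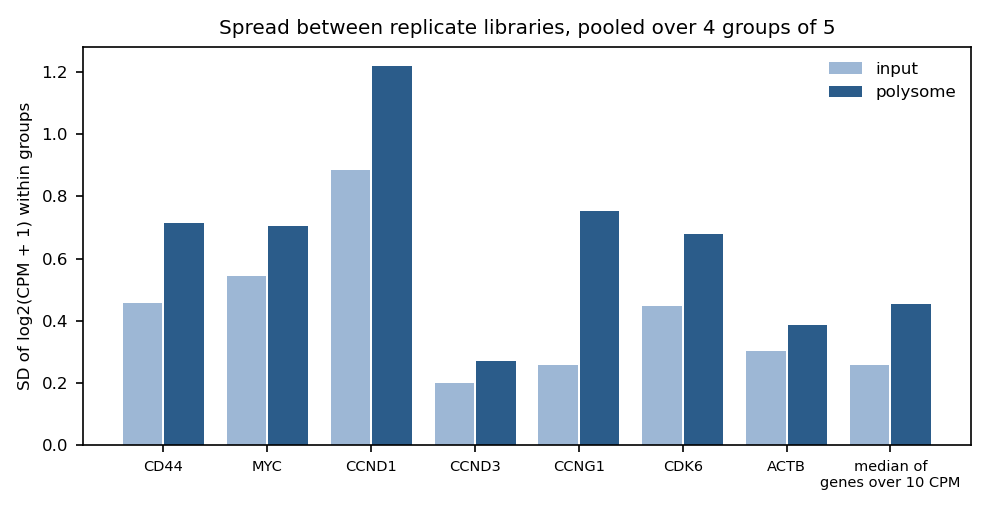
Bars start at 0 and give the SD of log2(CPM + 1) between replicate libraries within a group, pooled over 4 groups of 5, light blue for input and dark blue for polysome. CCND3 has the lowest bars of the 7 messenger RNAs and CCND1 the highest, and the last pair is the median of genes of at least 10 CPM.

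IL-13 did not change any of the 8 tested messenger RNAs past the test. None was called in shControl input, against 0.0777% of all genes, in shIGF2BP3 input (0.0837%), in shControl polysome (0.125%) or in shIGF2BP3 polysome (0.0956%), by edgeR or by DESeq2's Wald test. These shares are edgeR's, and the Wald test called 33, 22, 58 and 36 genes in all in the same order. In the same order, 1, 0, 1 and 1 of 8 had an unadjusted p under 0.05, against 2.04%, 1.03%, 5.14% and 3.21% of all genes. The last of these was IGF2, whose IL-13 shIGF2BP3 polysome libraries held 0 counts. The difference of the IL-13 effect between lines was called by edgeR for none in input or polysome (0% and 0% of all genes, 0 and 0 of 8 at an unadjusted p under 0.05). DESeq2's Wald test also called none of the 8, and it called 5 and 25 genes in all. The IL-13 effect on MYC was log2 -0.97 in shControl input and -1.16 in shControl polysome (edgeR adjusted p = 0.594), and -0.13 in both fractions without the unstimulated shControl library numbered 1.

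Lists of related genes were read alongside. Of 28 further reported IGF2BP targets, 24 were tested, and BCL2, an inhibitor of apoptosis, was the 1 called, lower in shIGF2BP3 input, where 0.406% of all genes were called. BCL2 input levels were 2.38 to 7.41 CPM, median 3.59, in shControl and 1.24 to 2.72, median 2.15, in shIGF2BP3 libraries, with overlapping ranges (log2 -0.97, SE 0.225, edgeR adjusted p = 0.0313). That call was lost with no filter (edgeR adjusted p = 0.201) and with the length offset (edgeR adjusted p = 0.0703). It was kept in 9 of 20 fits that left out 1 library (edgeR adjusted p from 0.0252 to 0.126), those without unstimulated shControl 1, 4 or 5, IL-13 shControl 2, 3, 4 or 5, or IL-13 shIGF2BP3 3 or 4. The BCL2 polysome difference was -0.59 (edgeR adjusted p = 0.201). The list had a median of -0.03 in input and -0.17 in polysome, beside -0.01 and -0.04 for all genes.

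Among 20 G1 cyclin, kinase and inhibitor genes, 19 were tested, and CDKN1A, the p21 inhibitor of cyclin-dependent kinases, was the 1 called, in a comparison that called 1.38% of all genes. It was lower in shIGF2BP3 polysome RNA, 301 to 633 CPM (median 460) against 403 to 1050 (median 695) in shControl (log2 -0.60, SE 0.149, edgeR adjusted p = 0.0279). The call was lost among libraries of at least 5000000 counts (edgeR adjusted p = 0.075) and in the 20 polysome libraries alone (edgeR adjusted p = 0.288). It was kept in 13 of 20 fits that left out 1 library (edgeR adjusted p from 0.0106 to 0.0814) and lost without unstimulated shControl 4 or 5, IL-13 shControl 2, unstimulated shIGF2BP3 2 or 5, or IL-13 shIGF2BP3 1 or 3. In input CDKN1A was -0.50 (edgeR adjusted p = 0.191), and -0.51 in the 20 input libraries alone, where it was called (edgeR adjusted p = 0.0029). None of the 14 tested of 17 genes of the IGF and let-7 axis and none of the 16 actin cytoskeleton genes was called by edgeR in a line effect or a shift. For the mean polysome line effect, 1 of the 14 and 6 of the 16 had an unadjusted p under 0.05 by edgeR, against 14.7% of all genes. In the same comparison so had 6 of the 24 further IGF2BP targets and 5 of the 19 G1 genes. The smallest in the IGF and let-7 list and in the actin list were HMGA1 (-0.49, edgeR adjusted p = 0.176) and TMSB10 (-0.41, edgeR adjusted p = 0.209).

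Finally, for each tested messenger RNA the gene with the most similar pattern over the 8 group means was found among genes of at least 10 CPM, as the root mean square difference of centred log2(CPM + 1). CCND3 was closest to SIRT6 (0.0505), ACTB to SLC25A3 (0.0303), CCNG1 to SRP72 (0.0425) and CDK6 to C18orf54 (0.0612). CD44 was closest to SELENOI (0.103), MYC to CCN1 (0.109) and CCND1 to NDRG1 (0.218). For IGF2 the closest was SHROOM1 (0.0587), but the highest IGF2 group mean was 0.568 CPM, where adding 1 flattens the pattern. IGF2 also passed the filter through its input libraries, so its match is not read. The group means share libraries and depth, so likeness is a description of these libraries.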

How the data were processed

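The deposited table gave estimated counts per gene and library, with decimals, and TPM, in which the authors corrected for length and library size, per the file headers. Trimmomatic, Salmon, MultiQC and DESeq2 are named in the submitters' processing notes, without versions. The genome build and annotation were not given in the sources used here. The design had assumed whole-number counts, so the estimated counts were rounded. Gene symbols matched 62246 of 62263 identifiers. Genes were filtered with filterByExpr, libraries scaled by TMM, and 1 mean per group fitted over 40 libraries with 32 residual degrees of freedom in edgeR 4.0.16 (R 4.3.3). Two-sided quasi-likelihood p-values received a Benjamini-Hochberg adjustment over 16735 genes, with calls at an adjusted p under 0.05. Intervals are at 95%. Transcripts and sequence came from GENCODE release 29 on GRCh38. The procedure was tested on simulated data with the same spread per gene in both fractions. That simulation therefore does not show how calls behave under the larger polysome spread of these libraries.

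The messenger RNAs and the gene lists were chosen with earlier results of these data known. The named genes are the 10 listed, IGF2BP1 to IGF2BP3, ACTG1 and INS-IGF2, the called genes of each list or the 2 of smallest p, and the gene of most similar pattern. The SD and pattern comparisons used log2(CPM + 1). Alternatives were DESeq2 size factors, the DESeq2 1.42.0 Wald test, no filter, a transcript length offset, fewer libraries, replicate blocks and leaving out each library.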

Additional observations from a re-analysis of the deposited data

Results flagged for a closer look

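Among 63 group values of the tested messenger RNAs, 6 had 1 library far from the other 4, with a gap to its nearest neighbour above the 95% critical value of Dixon's test, where chance gives about 3.1. Of these, 4 came from unstimulated shControl number 1: MYC at 258 CPM in input (the others 45.8 to 61.5) and 220 CPM in polysome (25 to 40.6), CCND1 at 56.4 CPM in input (7.32 to 20.2) and CD44 at 225 CPM in polysome (54.6 to 89.5). The remaining flags were both CDK6 in input, at 56.8 CPM in unstimulated shControl number 2 (28.4 to 33) and at 54.4 CPM in unstimulated shIGF2BP3 number 3 (30.1 to 36.8). What set these libraries apart was not tested.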

How the results depend on the processing

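Beside the CCND3 polysome line effect, the count of messenger RNAs called for the mean polysome line effect was 1, and it was 0 with no filter on low counts, 0 among libraries of at least 5000000 counts, 0 with only the libraries compared or the 20 libraries of a fraction, and 2 without the unstimulated shControl libraries numbered 1. Leaving out 1 library at a time gave 0 to 1. No called value changed direction, and of the values of named genes compared, 4809 stayed on their side of the threshold, 41 lost a call and 23 gained one. Of 3365 values of the 8 messenger RNAs that were called in neither fit, 272 changed sign. With the replicate number as a block the CCND3 value was -0.455 (edgeR adjusted p = 0.0425) and no count of the 8 messenger RNAs called was altered, whereas BCL2 in input lost its call (-0.9493, edgeR adjusted p = 0.0564). With line, treatment and number as a block MYC was called lower in IL-13 shControl polysome (-0.6281, edgeR adjusted p = 0.0382). Correlations of deviations from the group means ranged widely and could not settle whether the numbers pair the samples. Same-number libraries of other groups of a fraction had a median of -0.0598, from -0.662 to 0.73. Input and polysome libraries of 1 number within a line and treatment had a median of 0.0145, from -0.487 to 0.621. Those of different numbers had a median of -0.057, from -0.453 to 0.551. Over all genes the mean polysome line effect called 231 genes, against 524 by DESeq2's Wald test, 465 without the libraries numbered 1 of unstimulated shControl, 140 with no filter and 40 with the 20 libraries of a fraction. The mean input line effect called 68, against 148 by the Wald test and 224 with those 20. Deposited estimates held 0 or few reads of IGF2, HMGA2 and LIN28B, and for these depth limits any comparison.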
